A study of Mus musculus with 18 samples.

Results

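The cytosolic ribosomal protein genes are the genes for the proteins of the ribosome that translates nuclear messenger RNA. They were taken here as the protein-coding genes whose GENCODE symbol is Rpl or Rps followed by a number, with at most 1 letter of a, x, l or y and a further number after it, together with Rplp0, Rplp1, Rplp2 and Rpsa. This symbol rule found 84 of the 57126 genes in the count table, 51 of the large subunit and 33 of the small subunit. A further 5 symbols of the same form were not annotated as protein-coding and were left out, and the 78 nuclear genes for mitochondrial ribosomal proteins were kept apart.

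RNA-seq was done on 18 mammary tumors of female F1 mice from BALB/c and C57BL6/J parents, in which an adenovirus expressing Cre recombinase was injected into the mammary ducts at 10 to 12 weeks of age. Recombination left the epithelial cells it reached with the R172H allele of Trp53 over a deleted allele (MaP R172H/-, 7 tumors from 7 mice), with the R245W allele over a deleted allele (MaP R245W/-, 5 tumors from 5 mice), or with both alleles deleted (MaP -/-, 6 tumors from 4 mice). The stroma of all these tumors kept wild-type Trp53, and mice of each mutant group in part also carried a Cre-dependent TdTomato reporter. All libraries were stranded total RNA depleted of ribosomal RNA. The R172H/- libraries were read on a HiSeq instrument at 76 nt, and the R245W/- and -/- libraries on a NovaSeq instrument at 100 nt, all paired-end. Instrument and read length therefore follow the R172H/- genotype. Tumor type follows it too. The study classed all R172H/- tumors as nonmetaplastic adenocarcinomas, mostly luminal B and otherwise HER2-enriched. It classed all R245W/- and -/- tumors as triple-negative, with metaplastic and nonmetaplastic tumors in both groups. In every comparison of the R172H/- tumors the allele, the platform and the tumor type cannot be told apart. The comparison of R245W/- with -/- tumors is the one made within a single platform.

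Each ribosome joins a small subunit, which reads the codons, to a large subunit, which forms the peptide bonds. Each protein is needed in a fixed amount per ribosome, and most of the messenger RNAs begin with a C and a run of pyrimidines, the terminal oligopyrimidine (TOP) motif, through which mTORC1 and the binding protein LARP1 set their translation. RPL5 and RPL11, when not built into ribosomes, bind the ubiquitin ligase MDM2 and so link ribosome assembly to p53. The family left many processed pseudogenes in mammalian genomes, so short reads from a member can also match another place. A few members have paralogues of restricted use, such as Rpl3l of striated muscle and Rpl10l and Rpl39l of the testis.

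The tumors held 23113578 to 37365062 counts each. CPM below are counts scaled to each tumor's total after adjustment by its TMM normalization factor from edgeR. Trp53 itself was measured at 10.8 to 50.1 CPM in R172H/- tumors, 9.08 to 58.9 in R245W/- tumors and 9.41 to 21.6 in -/- tumors. These ranges overlap. Trp53 was higher in R172H/- than in -/- tumors, with a log2 fold change of 1.58 ± 0.31 (adjusted p = 0.00794 by edgeR), and was not called in R245W/- over -/- tumors (0.95 ± 0.44, adjusted p = 0.426 by edgeR). Of the marker lists, the 16 leukocyte genes summed to 606 to 912 CPM in R172H/- tumors, 717 to 5599 in R245W/- tumors and 791 to 2848 in -/- tumors. The 13 epithelial genes summed to 399 to 11844, 504 to 6645 and 174 to 3361 CPM in the same order, with R172H/- tumor YZ7, R245W/- tumor JM1233 and -/- tumor JM779-T1 lowest. Skeletal muscle genes reached 6435 CPM in JM1233, and adipocyte genes 5780 CPM in -/- tumor JM833-T1. In bulk tumor RNA, fewer cells of a type and less RNA per cell cannot be told apart.

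The starts of the genes show how far the TOP motif is visible at the annotated first base. The 30 bases from 10 before that base to 19 after it are printed from RefSeq's GRCm38.p6 annotation for 8 members, with the unbroken pyrimidine run over the start in capitals and no capitals where the start base is a purine. Rpl39, Rpl10 and Rpl38 are shown because they were among the genes furthest below -/- in R172H/- tumors. Rpl35 and Rpl27a are shown because they lay above, Rps27 and Rps6 as members of the small subunit, and Rpl41 as the gene with the highest level per length.
Rpl39: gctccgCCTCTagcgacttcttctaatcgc
Rpl10: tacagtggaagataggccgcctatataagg
Rpl38: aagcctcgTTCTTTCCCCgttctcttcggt
Rpl35: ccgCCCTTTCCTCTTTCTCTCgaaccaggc
Rpl27a: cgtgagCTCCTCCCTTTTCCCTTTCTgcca
Rps27: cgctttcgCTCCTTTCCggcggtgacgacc
Rps6: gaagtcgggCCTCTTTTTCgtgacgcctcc
Rpl41: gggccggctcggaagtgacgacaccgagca

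These windows lie at chrX:37085203-37085232 on the minus strand for Rpl39, chrX:74270806-74270835 on the plus strand for Rpl10 and chr11:114668570-114668599 on the plus strand for Rpl38. Those of Rpl35, Rpl27a and Rps27 lie at chr2:39005112-39005141 on the minus strand, chr7:109519185-109519214 on the plus strand and chr3:90213629-90213658 on the minus strand. Those of Rps6 and Rpl41 lie at chr4:86857348-86857377 and chr10:128549149-128549178, both on the minus strand. The run over the start was 20 bases long in Rpl27a and 18 in Rpl35, 10 in Rpl38 and Rps6, 9 in Rps27 and 5 in Rpl39. The start base itself is a T in Rpl27a and Rpl39, and a C in the other genes with a run. The annotated start base of Rpl10 and of Rpl41 was not in a pyrimidine run, which says only that these letters are not at that annotated base.

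RefSeq promoters of 300 bases, 250 before the start and 50 from it on, were matched by symbol for 63 of the 84 genes, which have 75 annotated starts. The 21 without an entry included Rpl3, Rpl21, Rpl23a, Rpl29, Rpl36, Rplp1, Rps4l and Rps14. A C at the start base followed by at least 4 pyrimidines stood at 13 of 75 member starts, 17.3%, against 2.51% of all 32851 starts in the table. CCGGAAG, the core bound by ETS family factors, was found on either strand in 36.0% of member promoters and 8.86% of all promoters. CTCTTTC on either strand, which can overlap the pyrimidine run, was found in 28.0% and 8.16%. The 13 genes with such a start had a median log2 fold change of -0.29 in R172H/- over -/- tumors, with 1 called higher and 5 lower, where 3.67% of all genes tested were called higher and 4.73% lower (the test is given with that comparison). The 48 tested genes with an entry and without such a start had a median of -0.49, with 2 higher and 17 lower. Of the genes printed above, Rpl35, Rpl38, Rps27 and Rps6 have such a start. Rpl27a, Rpl39, Rpl10 and Rpl41 do not. Of the other genes called higher in R172H/- over -/- tumors, Rps26 has no such start, and Rpl36 and Rplp1 have no entry.

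Levels of different genes were compared as CPM per kilobase of coding sequence. By this measure Rpl41, whose product is the shortest ribosomal protein with a coding length of 75 bases, had the highest median over the 18 tumors, at 5683. Rps24, a small subunit protein, and Rplp1, a protein of the ribosomal stalk that recruits translation factors, followed at 1568 and 1466. At the other end, Rpl10l had 1 count in 1 -/- tumor and none in the other 17. Rpl3l had a median of 0.621 and Rpl39l of 1.64 per coding kilobase. Coding length is not the transcript length, so the order of genes with a short coding part and comparatively long UTRs, Rpl41 above all, depends on this choice.

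**Figure D1:**
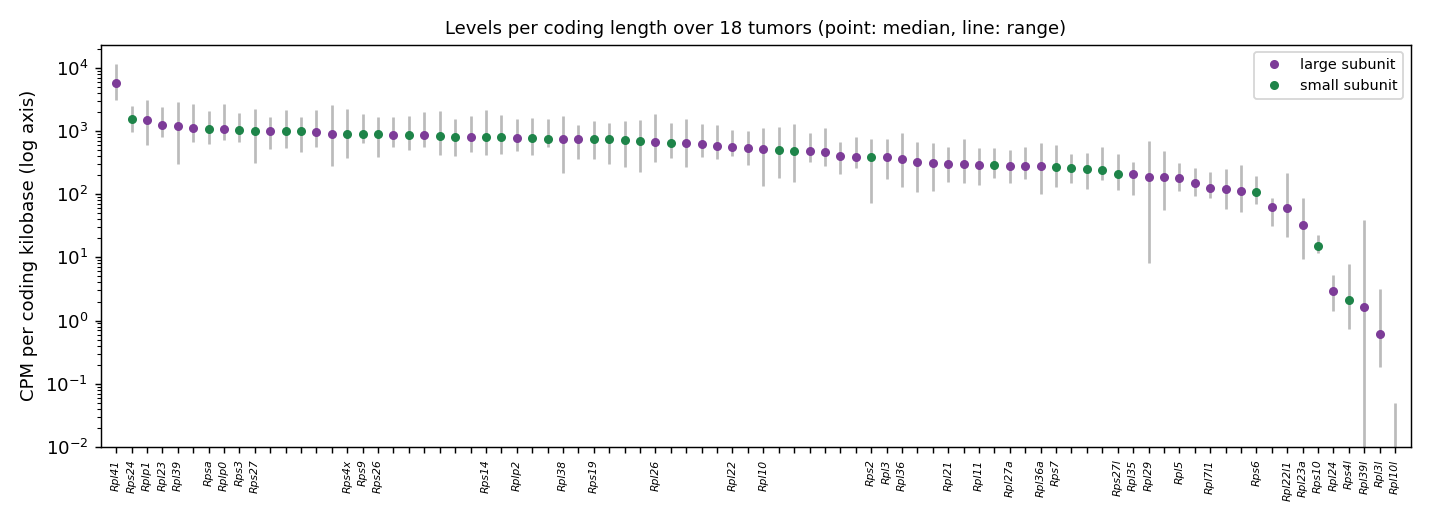
Median CPM per coding kilobase over the 18 tumors for each of the 84 genes (members named by the rule are labelled), on a log axis, with the range over tumors as a line (drawn down to 0.01 at the lowest) and large and small subunit genes in different colors. Rpl41 stands highest at 5683, and Rpl3l, Rpl39l and Rpl10l are the lowest.

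Although all proteins of a subunit are needed in fixed proportion, some genes of full members of the ribosome were counted at far lower levels than others. Rpl24, a large subunit protein, had 15 to 85 counts per tumor and Rpl23a, which lies at the exit of the peptide tunnel, 113 to 1073. Rps10 of the small subunit had 139 to 349 counts. The paralogue Rps4l had 18 to 190. For these genes the share of 76-base windows of the messenger RNA that recur exactly elsewhere in the genome was 84.6% in Rpl24, 93.5% in Rpl23a, 50% in Rps10 and 6.39% in Rps4l. Shares as high were found in well counted members, 94.1% in Rpl10 and 92.3% in Rps6. How reads that match several places were assigned is not given in the sources used here, and its part in these low levels was not tested.

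Together the 84 genes took 2.04% ± 0.329 of the counts in R172H/- tumors (SD, n = 7), 2.99% ± 0.708 in R245W/- tumors (n = 5) and 2.42% ± 0.370 in -/- tumors (n = 6). The R172H/- tumors ranged from 1.70% to 2.53%, the R245W/- tumors from 2.42% to 4.16% and the -/- tumors from 1.88% to 2.90%. Each pair of groups overlapped. R245W/- tumor JM1133 was far above the other 17 tumors, and without it the R245W/- mean was 2.699%.

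The large subunit genes took 1.19% ± 0.205 of the counts in R172H/- tumors, 1.68% ± 0.417 in R245W/- and 1.34% ± 0.210 in -/- tumors. The small subunit genes took 0.850% ± 0.132, 1.31% ± 0.294 and 1.08% ± 0.162. The ratio of large to small subunit counts was 1.40 ± 0.0936 in R172H/- tumors, with a range of 1.26 to 1.55, against 1.27 ± 0.0734 in R245W/- tumors (1.19 to 1.37) and 1.24 ± 0.0384 in -/- tumors (1.17 to 1.29). The R172H/- ratios were thus mostly above the others with an overlap at the lower end. These shares describe chosen genes and were not tested.

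**Figure D2:**
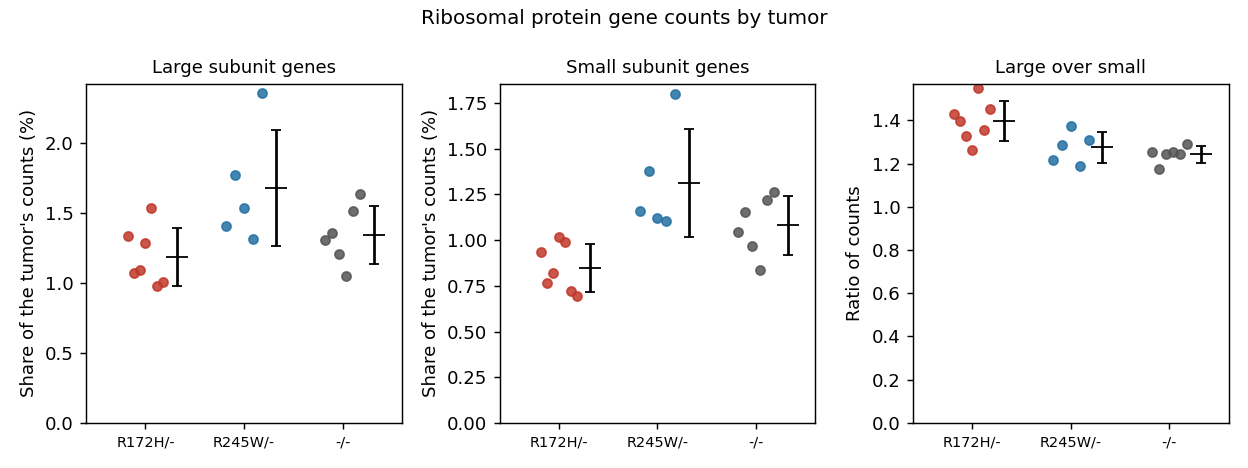
Share of each tumor's counts (percent, from 0) that falls on the large subunit and on the small subunit genes, and the ratio of large to small subunit counts. Each point is a tumor, grouped by genotype. R245W/- tumor JM1133 is the highest point for the large subunit at 2.36% and for the small subunit at 1.80%. R172H/- tumor YZ7 has the highest ratio at 1.55.

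The members tended to be high or low together in a tumor. JM1133 had the highest CPM of the R245W/- tumors in 67 of the 83 members with counts there, and JM1233 the lowest in 46. Among -/- tumors JM779-T1 was highest in 59 of 84 members and JM833-T1, the tumor with the high adipocyte genes, lowest in 68. The R172H/- tumors were less ruled by single tumors, with YZ7 highest in 40 of 83 and YZ10 and YZ11 lowest in 27 each. The tumor with fewest epithelial counts was thus the highest one for many members in both the R172H/- and the -/- group, and the lowest one in the R245W/- group. The part of cell content in these orders was not tested.

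The first comparison asked how the R172H/- tumors differ from -/- tumors. More ribosomal protein genes were called lower than higher in R172H/- tumors, and the change was not of one size. By edgeR's quasi-likelihood test with a false discovery rate (FDR, Benjamini-Hochberg over 20954 genes) under 0.05, 29 of the 82 members tested were lower and 5 higher, where 8.4% of all genes tested were called, 4.73% lower and 3.67% higher. Rpl10l and Rpl39l had too few counts for the test. The median log2 fold change of the 82 was -0.48, against 0.00 over all genes tested, and 27 of the 82 were above 0, where 50.2% of all genes were. An unadjusted p under 0.05 was reached by 50 members, 39 of them lower, where 24.7% of all genes reached it. In 18 members every R172H/- tumor was below every -/- tumor, and in 2 every one was above, where the groups were apart in 2.62% and 2.0% of all genes.

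In the large subunit 16 of 49 genes fell and 4 rose, with a median of -0.33. The largest falls were of Rpl10, which helps to join the subunits and is a gene with recurrent mutations in T cell leukemia, and of Rpl39, a very small protein of the peptide exit tunnel. Rpl39 (ENSMUSG00000079641.4, GRCm39 chrX:36345092-36349130, minus strand) was measured in R172H/- tumors at 47.1, 48.5, 45.8, 78.5, 52.7, 53.02 and 52.3 CPM. It was measured at 244.5, 169, 224, 125, 200 and 235 CPM in -/- tumors. The highest R172H/- value, in YZ6, was well under the lowest -/- value, in JM833-T1. The log2 fold change was -1.87 ± 0.19 (SE), 3.65 times lower in R172H/- tumors, with an adjusted p of 1.10e-04 by edgeR.

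Rpl10 (ENSMUSG00000008682.14, GRCm39 chrX:73314418-73316741, plus strand) stood at 93.7, 100.7, 89.0, 144, 87.5, 108 and 106 CPM in R172H/- tumors against 415, 330, 462, 252, 364 and 534 CPM in -/- tumors. These groups were also apart, and the log2 fold change was -1.90 ± 0.19 (adjusted p = 1.24e-04 by edgeR). Rpl23a (GRCm39 chr11:78071753-78074425, minus strand) stood at 4.36 to 6.21 CPM with a median of 5.17 in R172H/- tumors and 11.2 to 18.8 CPM in -/- tumors, a log2 fold change of -1.63. Rpl38 (GRCm39 chr11:114559350-114563166, plus strand), known for mouse mutants with altered axial skeleton patterning, stood at 46.0 to 74.7 CPM against 134 to 284 CPM, a log2 fold change of -1.56.

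The other members lower by more than 1 log2 unit and named by the rule were Rpl22l1 at -1.49, Rpl36a at -1.28 and the low-count gene Rpl24 at -1.05. Rpl3, at the peptidyl transferase centre, was lower by a log2 fold change of -0.85. A further 7 large subunit genes were called lower, with log2 fold changes of -1.48 to -0.69. Of the 5S particle genes, Rpl5 was lower (log2 -0.59 ± 0.13, adjusted p = 0.0163 by edgeR), with 102 to 124 CPM in R172H/- and 117 to 197 CPM in -/- tumors, an overlap made by JM833-T1 alone. Its call was lost with GC offsets (adjusted p = 0.0591 by edgeR) and without a filter on low counts (0.0548). Its partner Rpl11 was not called, at log2 -0.60 ± 0.26 with an adjusted p of 0.164 by edgeR.

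The 4 large subunit genes that rose were Rpl36 at log2 1.39 ± 0.30, Rplp1 at 1.01 ± 0.25, Rpl27a at 0.99 ± 0.21 and Rpl35 at 0.87 ± 0.18. Rplp1 stood at 574, 501, 589, 664, 1061, 504 and 496 CPM in R172H/- tumors and at 258, 300, 205, 259, 363 and 501 CPM in -/- tumors. The groups overlapped through JM779-T1. The calls of Rplp1 (adjusted p = 0.0237 by edgeR) and Rpl36 (0.0126) were lost when tumors of the same mouse were summed, with adjusted p of 0.0763 and 0.0598 by edgeR. They were lost too with GC offsets (0.0805 and 0.0660 by edgeR) and without both tumors of mouse JM833 (0.0669 and 0.0512). The call of Rplp1 was lost as well without -/- tumor JM836-T1 (adjusted p = 0.0537 by edgeR) and without JM663-T2 (0.0573). The other stalk genes were not called, Rplp2 at 0.53 ± 0.19 and Rplp0 at -0.21 ± 0.17.

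In the small subunit 13 of 33 genes fell and 1 rose, with a median of -0.54. Rps27, a zinc finger protein of the small subunit, was the named member lowest in R172H/- tumors with a log2 fold change of -1.36 ± 0.23 (adjusted p = 0.00312 by edgeR). Its R172H/- values were 115, 86.7, 101.4, 96.1, 188, 79.8 and 78.2 CPM and its -/- values 294, 297, 258, 174, 260 and 377 CPM. YZ7 was the only R172H/- tumor above the lowest -/- tumor. Rps4x fell by 1.12 on the log2 scale, from 588 to 1023 CPM in -/- tumors to 292 to 497 CPM in R172H/- tumors. Rps19, the gene most often mutated in Diamond-Blackfan anemia, and Rps7, which also binds MDM2, fell by 0.89 and 0.85. A further 9 small subunit genes were called lower, with log2 fold changes of -1.16 to -0.64.

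Rps26, whose protein sits at the exit of the messenger RNA channel, was the gene that rose. It stood at 566, 445, 384, 583, 531, 486 and 399 CPM in R172H/- tumors and at 197, 270, 199, 131, 195 and 238 CPM in -/- tumors. Every R172H/- tumor was above every -/- tumor, and the log2 fold change was 1.26 ± 0.18 (adjusted p = 0.00115 by edgeR). Small subunit genes of well-known function that were not called include Rps6, the substrate of S6 kinase, at -0.29 ± 0.23, Rps3 at -0.08 ± 0.19, and Rps14, the gene of the 5q- syndrome, at -0.36 ± 0.20. Rpsa, first described as a laminin receptor precursor, was at 0.57 ± 0.23 with an adjusted p of 0.143 by edgeR.

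**Figure D3:**
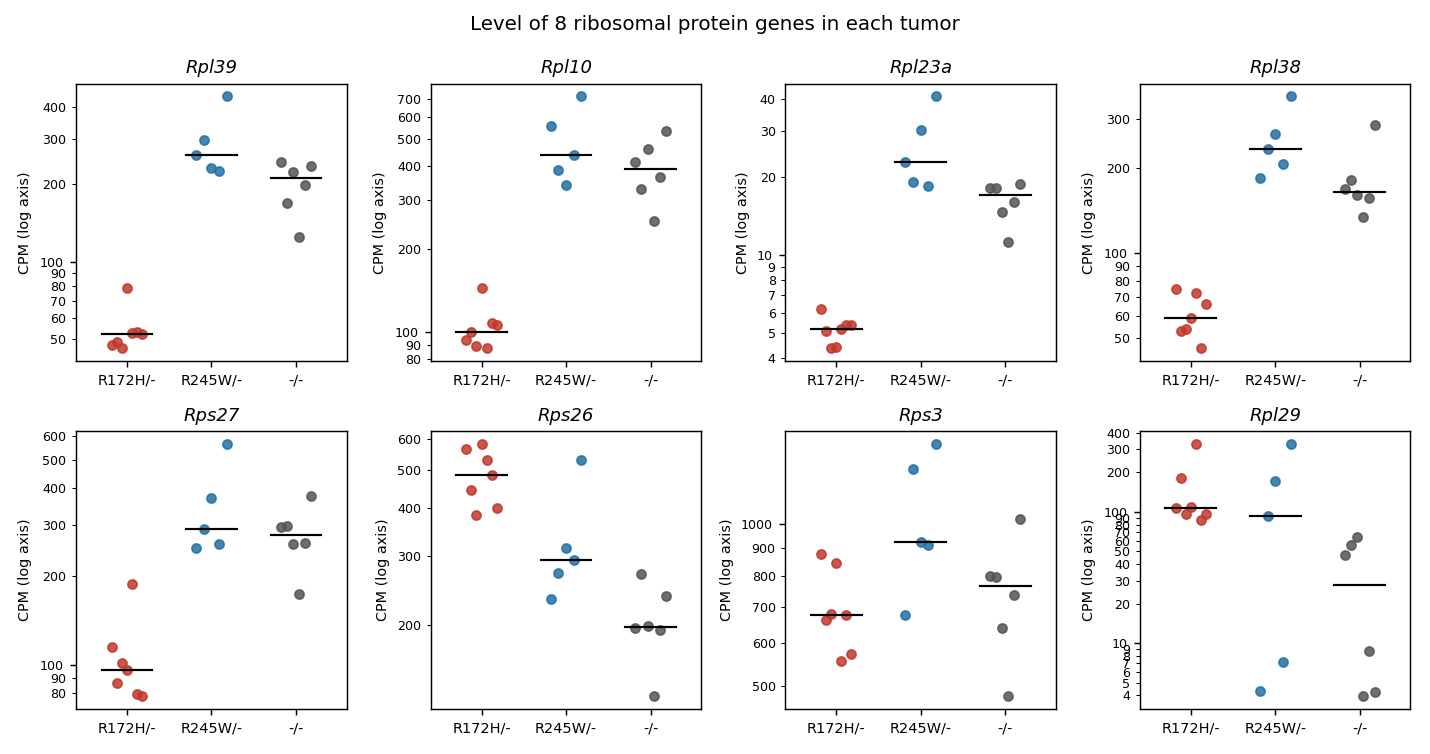
CPM (log axes) of 8 members in each tumor, grouped by genotype, with a line at the group median. The 7 R172H/- tumors lie below all others for Rpl39, Rpl10, Rpl23a and Rpl38, above all -/- tumors for Rps26, and among the others for Rps3; Rpl29 splits tumors of R245W/- and -/- into high and low.

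The 4 members on the X chromosome, Rpl39, Rpl10, Rpl36a and Rps4x, were all called lower in R172H/- tumors and had no overlap with -/- tumors. Their median log2 fold change was -1.57, against -0.41 for the 78 tested members on autosomes and -0.19 for the 472 tested protein-coding genes on the X chromosome, of which 43 were called lower and 10 higher. In R245W/- over -/- tumors the same 4 genes had a median of 0.41.

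The platform limit was described by 3 measures. The first was the share of windows as long as the R172H/- reads, 76 bases from the start of each member's transcript to at most 100 bases after the stop codon, that recur exactly elsewhere in GRCm39. Among members with under 10% of such windows, 8 were tested, their median log2 fold change was 0.02 and none was called; 0 of the 8 had an unadjusted p under 0.05. Among 23 members with 10% to 50%, the median was -0.36 and 3 were called higher and 5 lower. Among 51 members at 50% or more it was -0.59, with 2 higher and 24 lower. Across the 82 members Spearman's rho of the log2 fold change with this share was -0.34, given as a description since the genes share libraries. A window stands for a single read, whereas the libraries were read in pairs, and the second read of a pair was not considered. In windows of 100 bases the share of Rps4x was 42.65% against 62.1% at 76 bases. That of Rpl10 was 93.9% against 94.1%.

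Single genes varied around the order of the 3 classes. Rpl10 had 94.1% recurring windows and Rpl39 32.02%, and both lay near -1.9 on the log2 scale, to 1 decimal. Rps26 had 29.4%. In R245W/- over -/- tumors, read on 1 platform, the 3 classes had medians of 0.47, 0.46 and 0.52. The second measure was the set of 317 pseudogenes named after a member. In R172H/- over -/- tumors 91 of them were tested, of which 45 were lower and 3 higher. Of all genes tested 4.73% were lower and 3.67% higher. The median of the 91 on the log2 scale was -1.02. In R245W/- over -/- tumors 110 were tested and their median was 0.30. None was called there, as no gene was. Counts of these pseudogenes were few beside those of the members. They averaged 0.685 per 100 member counts in R172H/- tumors, 0.705 in R245W/- and 0.678 in -/- tumors. Adding them to the members left 29 lower and 5 higher. The set leaves out copies under other symbols: Rpl24 and Rpl6 have 0 pseudogenes in it, with 84.6% and 78.1% recurring windows. Reads left unassigned would be in neither count. These counts therefore do not measure the part of shared sequence, which was not tested.

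The third measure was the GC content of the coding sequence. The 2 tested members under 45% GC had a median of -1.45 on the log2 scale in R172H/- over -/- tumors, and other protein-coding genes of that class one of -0.22. Members of 45% to 50% had a median log2 fold change of -0.58 in the same comparison (19 genes), those of 50% to 55% a median of -0.52 (39 genes) and those of 55% or more a median of 0.14 (22 genes). Other protein-coding genes in the same classes had medians of -0.09, 0.04 and 0.28. Spearman's rho between GC content and log2 fold change was 0.43 over the 82 members and 0.35 over 14603 other protein-coding genes. Offsets for GC content in each tumor were added after seeing the data, in a fit of protein-coding genes alone. With them 28 members were lower and 3 higher, where 564 of all 14680 genes tested were called. Without offsets, the fit of protein-coding genes alone had 31 members lower and 5 higher, where 1059 of 14680 genes were called. The part of instrument, read length, read assignment and tumor type in these differences cannot be told apart from the allele.

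**Figure D4:**
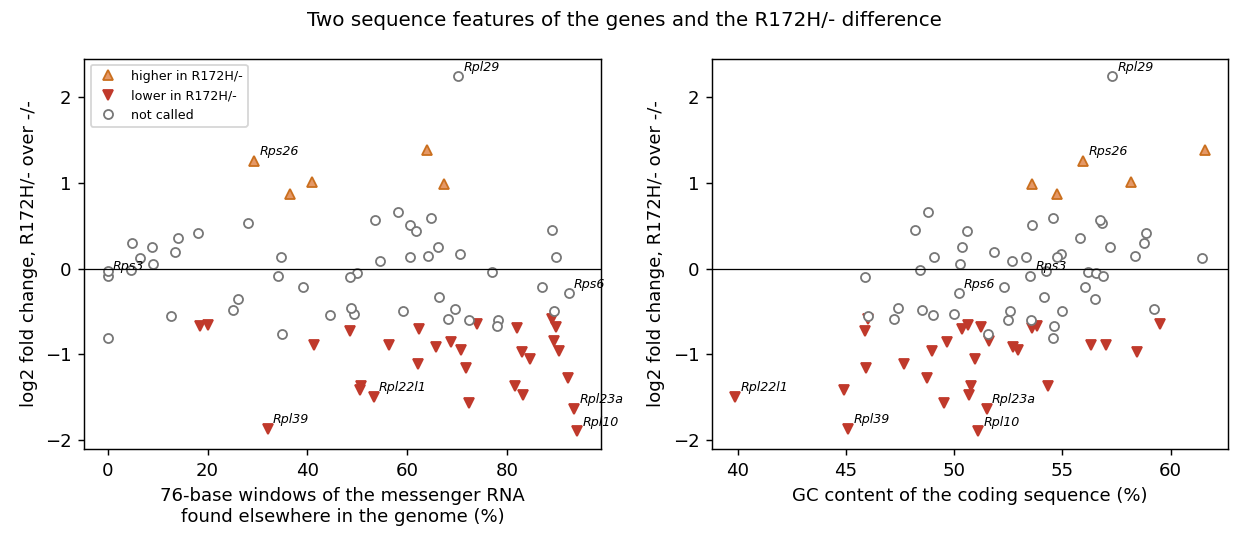
Log2 fold change of R172H/- over -/- tumors for the 82 tested members against the share of 76-base windows that recur elsewhere in the genome (left, percent) and the GC content of the coding sequence (right, percent); triangles mark called genes, pointing up for higher and down for lower. Of the 29 called lower genes 24 lie at 50% or more recurring windows, and Rpl39 at 32.02% is among the 5 others.

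Cell type markers moved beside these values. Of the 16 leukocyte markers 6 were called lower in R172H/- than in -/- tumors and none higher, and the list median was -1.25 on the log2 scale. Of the 9 fibroblast markers 3 were lower, of the 7 endothelial markers 2, and of the 13 epithelial markers none was called, with 3 at an unadjusted p under 0.05 and a median of 1.38. Adipocyte genes were far higher in -/- tumor JM833-T1 than in any other tumor, at a sum of 5780 CPM. The median log2 fold change of adipocyte markers was -3.30, with all 8 tested below 0, none called and 3 at an unadjusted p under 0.05. That of erythrocyte markers was -2.37, with none called and all 5 at that p. Of 12 proliferation genes only Pcna was called, at log2 -0.86. The part of cell content in the ribosomal protein differences was not tested.

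The second comparison asked how R245W/- tumors differ from -/- tumors, on a single platform. No member was called by edgeR at the FDR threshold, and no gene of the 21452 tested was (0.0% called). DESeq2 called 424 of the 24838 genes it tested, 1.71%, and among them 1 member, Rplp1, at log2 0.98 with an adjusted p of 0.0415. The estimates nevertheless lay on one side: 79 of the 83 members tested were above 0, where 51.8% of all genes were. The median log2 fold change was 0.51, against 0.02 over all genes. Protein-coding genes as a whole also leaned this way, with 9277 of 14809 above 0 and a median of 0.12. In a fit of protein-coding genes alone 78 members were above 0 and their median was 0.40. An unadjusted p under 0.05 was reached by 36 members, all with an estimate above 0, where 5.32% of all genes reached it with a higher estimate.

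The 50 large subunit genes had a median of 0.55 with 48 above 0, and the 33 small subunit genes a median of 0.41 with 31 above 0. The members share libraries, so their common side is a property of these 11 tumors and not of 83 separate observations. It depended in size on 1 tumor: without JM1133 the median was 0.35 and 14 members had an unadjusted p under 0.05. Without -/- tumor JM833-T1 the median was 0.43 and 23 had one. The 78 mitochondrial ribosomal protein genes had a median of 0.34 in the same comparison, also with none called by edgeR and 20 at an unadjusted p under 0.05.

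Rplp1 stood at 488, 582, 477, 591 and 907 CPM in R245W/- tumors. The only -/- tumor above the lowest of these was JM779-T1, at 501 CPM. Its log2 fold change was 0.95 ± 0.26 with an adjusted p of 0.360 by edgeR. Rps9, a protein that helps to keep decoding accurate, was the one member in which every R245W/- tumor was above every -/- tumor, where 0.466% of all genes were so. Its values were 594, 882, 691, 671 and 1087 CPM against 513, 522, 374, 376, 564 and 584 CPM. The gap between the groups was small beside their ranges, and the log2 fold change of 0.68 ± 0.21 had an adjusted p of 0.360 by edgeR.

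Rpl26, which binds the Trp53 messenger RNA, had a log2 fold change of 1.11 ± 0.34, Rpl36 of 1.09 ± 0.31 and Rpl27a of 0.74 ± 0.23, all with an adjusted p of 0.360 by edgeR. The 4 members below 0 were Rpl21 at -0.60 ± 0.33, Rps2 at -0.25 ± 0.64, Rpl24 at -0.07 ± 0.26 and Rps10 at -0.07 ± 0.23, none distinguishable from 0. The p53-linked members Rpl5 and Rpl11 were both at 0.27, with SEs of 0.19 and 0.22. No marker gene was called in this comparison. The median log2 fold change of skeletal muscle markers was 4.89, with all 11 tested at an unadjusted p under 0.05 and JM1233 far above the other R245W/- tumors. Adipocyte markers had a median of -6.41, with all 8 tested below 0 and at an unadjusted p under 0.05. They summed to 5780 CPM in -/- tumor JM833-T1 and 585 in JM833-T2. The sums were 27.1 to 96.4 CPM in the other -/- tumors and 15.2 to 55.3 in R245W/- tumors. Leukocyte markers had a median of -1.04, with 4 of 16 at an unadjusted p under 0.05. The part of these markers in the member values was not tested.

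**Figure D5:**
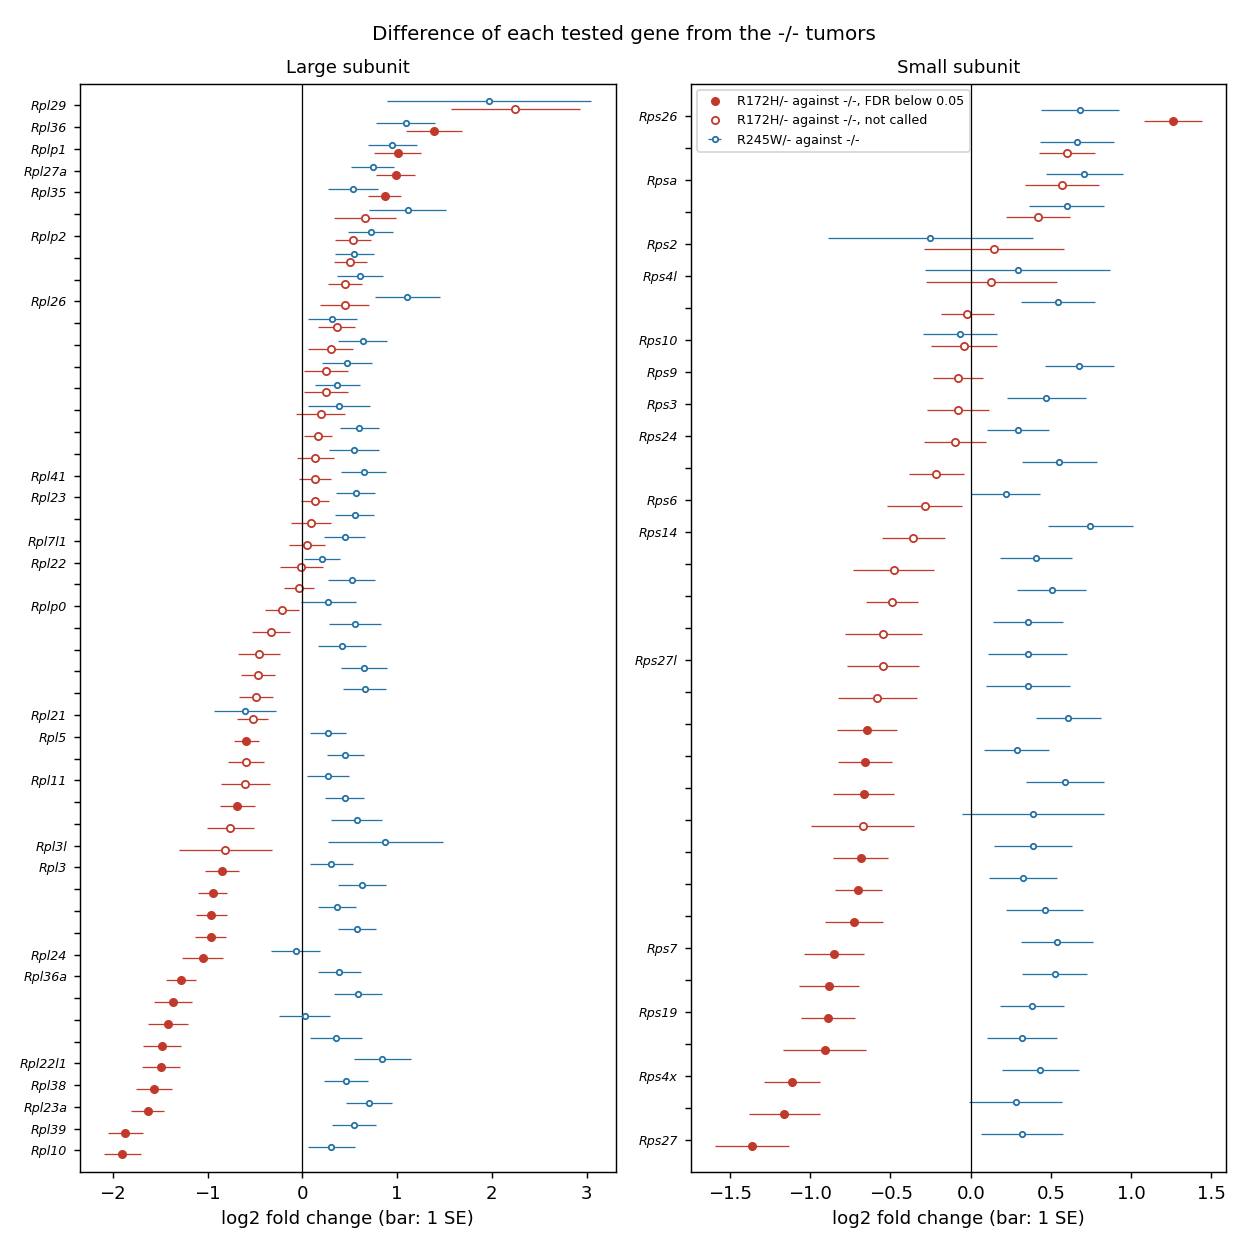
Log2 fold change from -/- tumors of the 82 members tested for R172H/- (members named by the rule are labelled), large subunit left and small subunit right. Values are shown for R172H/- (filled where the FDR is under 0.05) and R245W/- (open), and bars show 1 SE. R172H/- points run from -1.90 for Rpl10 to 2.25 for Rpl29. Of the 83 R245W/- estimates 79 are above 0, and that of Rpl39l, at 1.65, is not drawn.

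The third comparison set the mutants against each other, across the platforms. In R172H/- tumors 44 of 83 members were lower than in R245W/- tumors and none was higher, where 9.4% of all 22481 genes were called, 6.49% lower and 2.91% higher. For members above 0, 1 had an unadjusted p under 0.05, and DESeq2, which called 12.4% of the genes it tested, also called none higher. The median log2 fold change was -0.91, against 0.00 over all genes, and 10 of 83 were above 0, where 50.2% of all genes were. Every R172H/- tumor was below every R245W/- tumor in 31 members and above in 0, where these held for 4.05% and 1.77% of all genes. In the large subunit 23 of 50 were lower with a median of -0.78, and in the small subunit 21 of 33 with a median of -0.95.

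Rpl39 stood at 260, 298, 232, 226 and 442 CPM in R245W/- tumors, at least 226 against at most 78.5 CPM in R172H/- tumors. The log2 fold change of R172H/- over R245W/- was -2.43 ± 0.21 (adjusted p = 1.97e-06 by edgeR). Rpl23a followed at -2.36 ± 0.21, Rpl22l1 at -2.36 ± 0.25, Rpl10 at -2.23 ± 0.21 and Rpl38 at -2.04 ± 0.20. Rps27 was at -1.70, Rps19 at -1.29 and Rps14 at -1.13. All of these had groups apart.

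The 5S particle genes were lower in R172H/- tumors here, Rpl5 at -0.88 ± 0.15 and Rpl11 at -0.89 ± 0.25 (adjusted p = 0.0330 by edgeR). The call of Rpl11 was lost without any 1 of 8 tumors, R172H/- tumors YZ2, YZ3, YZ4, YZ6, YZ10 and YZ11 and R245W/- tumors JM1126 and JM1133, with adjusted p between 0.0540 and 0.0925 by edgeR. It was also lost in a fit of the 2 mutant groups alone (adjusted p = 0.0569 by edgeR) and without a filter on low counts (0.0562). The call of Rps27l (-0.92 ± 0.24) was lost with GC offsets (adjusted p = 0.0768 by edgeR) and without R245W/- tumor JM1564 (adjusted p = 0.0731 by edgeR) or JM1133 (0.0572). Rps26 was at 0.56 ± 0.21 and not called (adjusted p = 0.105 by edgeR), as its R245W/- values of 233 to 532 CPM reached into the R172H/- range. It was called higher without JM1133 (log2 0.80, adjusted p = 0.0199 by edgeR) and with upper quartile factors (log2 0.67, adjusted p = 0.0423 by edgeR). Beside these values, 10 of the 12 skeletal muscle markers tested were called lower in R172H/- than in R245W/- tumors (median log2 fold change -4.59), as were 1 of 9 fibroblast markers (median -1.42, all below 0), 3 of 16 leukocyte markers (median -0.08) and 2 of 12 proliferation genes (median -0.21). No adipocyte marker was called, with a median of 3.597 and 3 of 8 at an unadjusted p under 0.05, and no epithelial marker was, with a median of 0.60. The part of these markers in the member differences was not tested.

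The comparisons with -/- share the -/- tumors, and the R172H/- tumors enter both others, so likeness between the comparisons is no separate evidence. For each member called in both R172H/- comparisons the direction was lower; these were 29 genes, 85.3% of the 34 called against -/- and 65.9% of the 44 called against R245W/-. The 5 members called higher against -/- were not called against R245W/-: Rps26 at 0.56, Rpl36 at 0.28, Rpl27a at 0.22, Rpl35 at 0.32 and Rplp1 at 0.04. Their R245W/- over -/- log2 fold changes were 0.68, 1.09, 0.74, 0.53 and 0.95 in the same order.

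By recurring windows the third comparison was ordered as the first, with medians of -0.41 over 9 members under 10%, -0.78 over 23 members at 10% to 50% and -1.05 over 51 members at 50% or more. None of the 9 was called (5 had an unadjusted p under 0.05), and 12 of 23 and 32 of 51 were called lower. The platforms and tumor types differ in this comparison as in the first, and their part cannot be told apart from the alleles.

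Paralogues were read as counts per 100 counts of the partner gene. Rpl22l1, a paralogue of Rpl22 with a role in splicing and blood cell development, had a median of 4.96 counts per 100 of Rpl22 in R172H/- tumors (2.03 to 6.46), 16.8 in R245W/- tumors (12.7 to 25.9) and 11.01 in -/- tumors (7.82 to 18.4). All R172H/- tumors were thus below all others. Rpl22l1 moved and Rpl22 did not pass the test: their log2 fold changes of R172H/- over -/- tumors were -1.49 ± 0.20 (adjusted p = 7.56e-04 by edgeR) and -0.01 ± 0.22. Rpl22l1 has a lower coding GC content than Rpl22, 39.9% against 48.4%, and 53.3% recurring windows against 4.65%.

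Rps27l, a p53 target gene whose product resembles RPS27, had a median of 35.8 counts per 100 of Rps27 in R172H/- tumors (26.7 to 60.8), 19.98 in R245W/- (15.4 to 37.7) and 19.7 in -/- tumors (17.9 to 28.04), with overlap. Here the partner differed more: Rps27l was at -0.55 ± 0.22 in R172H/- over -/- tumors and was not called. Rpl7l1, a paralogue of Rpl7 with a role in early development, had 15.2, 11.03 and 10.7 counts per 100 of Rpl7, with overlapping ranges.

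The testis and muscle paralogues were near absence. Rpl39l had at most 5.90 CPM, in R245W/- tumor JM1126, and 7 testis germ cell markers summed to at most 2.80 CPM in any tumor. Rpl3l stood at 0.336 ± 0.140 CPM in R172H/- (SD, n = 7), 1.11 ± 0.736 in R245W/- (n = 5) and 0.607 ± 0.532 in -/- tumors (n = 6). Its log2 fold change of R172H/- over R245W/- was -1.71 ± 0.53 with an adjusted p of 0.0501 by edgeR, and DESeq2 called it at an adjusted p of 0.0244. Skeletal muscle genes moved beside it, with 10 of 12 tested called lower in R172H/- than in R245W/- tumors.

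Rpl29, a heparin-binding protein of the large subunit, varied most over the 18 tumors, with an SD of log2 CPM of 2.11. It was at 4.32, 92.5, 171.8, 7.15 and 329 CPM in R245W/- tumors and at 47.1, 56.4, 64.2, 3.94, 8.65 and 4.23 CPM in -/- tumors. Both tumors of -/- mouse JM833 were low and both of mouse JM663 were high. The R172H/- tumors were all high, at 87.3 to 328 CPM and above every -/- tumor, but the log2 fold change of 2.25 ± 0.68 had an adjusted p of 0.0573 by edgeR, with DESeq2, which called 11.4% of the genes it tested, at 0.00767. Rpl39 and Rpl10 came next with SDs of 1.12 and 1.07, which follow the groups. Rps10, Rpl23 and Rps24 varied least among tested members, with SDs of 0.24, 0.33 and 0.35.

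Other genes of the pathway were read from fixed lists, and no set test was run on them. In R172H/- over -/- tumors 3.67% of all genes tested were called higher and 4.73% lower. In R172H/- over R245W/- tumors these shares were 2.91% and 6.49%. Of the 78 mitochondrial ribosomal protein genes, 9 were higher and 2 lower in R172H/- than in -/- tumors, and their median on the log2 scale was 0.22. Mrps12 was higher by 1.32 and Mrpl41 by 0.89, and Mrpl23 was lower by a log2 fold change of -1.05. Against R245W/- tumors 1 was higher and 10 lower, with a median of -0.16. Of 103 ribosome biogenesis genes, 2 were higher (Ubtf, the factor of RNA polymerase I, at 0.54, and Dhx37 at 0.57) and 4 lower against -/-. The 4 included Fbl, the methyltransferase of ribosomal RNA, at -0.59 and Nol10 at -0.97. The median of the 103 was 0.01, and against R245W/- tumors it was -0.18 with 1 higher and 9 lower.

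A list of 19 other genes with TOP messenger RNAs held translation factors and further proteins. Of these 19, 4 were lower in R172H/- than in -/- tumors and none higher, where 4.73% of all genes tested were lower. The median of the 19 was -0.28. The 4 were Hnrnpa1 at -0.87, Eif3m at -0.68, Eif3e at -0.64 and Naca at -0.61. Against R245W/- tumors 8 of the 19 were lower and none higher, where 6.49% of all genes tested were lower, and the median was -0.69. In R245W/- over -/- tumors the median was 0.40 and none was called (4 at an unadjusted p under 0.05). Of 22 regulators of ribosomal protein synthesis, Myc at 1.01 and Akt1s1, an inhibitor subunit of mTORC1, at 0.89 were higher in R172H/- than in -/- tumors and Rps6ka3 was lower at -0.93. Against R245W/- tumors Mycl at 2.22 was higher and Yy1 at -0.57 lower. In R245W/- over -/- tumors the biogenesis genes had a median of 0.17 and the regulators of 0.04, with none called by edgeR and 3 and 4 at an unadjusted p under 0.05. In R172H/- over -/- tumors, Mtor at 0.00, Larp1 at 0.20 and Mdm2 at -0.04 were not called. Of the ribosomal proteins outside the symbol rule, Fau, Rpl36al and Rack1 were not called against -/-, at -0.21, -0.51 and 0.15. Fau was lower in R172H/- than in R245W/- tumors, at -1.15.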

How the data were processed

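The submitters read stranded, rRNA-depleted total RNA, and their processing notes name STAR 2.7.10b, RSEM 1.3.3, FastQC 0.11.9 and GRCm39. The deposited table holds whole-number counts per gene, made by the authors, with no normalization. RSEM estimates need not be whole, and whether these were rounded and how reads matching several places were treated is not given in the sources used here. Tumor names follow the labels. For mice JM779 and JM836 the study's tumor list marks the other tumor of the mouse as sequenced, and its heatmap names a tumor differently from the label YZ7. CPM were computed from each tumor's total multiplied by its TMM factor. Shares of counts were computed from the unadjusted total. Symbols, biotypes and coding lengths came from a GENCODE annotation of GRCm39 that matched 56620 of 57126 gene IDs. The unmatched 506 held at most 0.0464% of a tumor's counts. The genes and lists were chosen with earlier results of these data known.

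Each mutant was compared with -/- in a fit of these 2 groups, and the mutants with each other in a fit of all 18 tumors, with edgeR 4.0.16 in R 4.3.3 (TMM factors, filterByExpr, quasi-likelihood test, FDR under 0.05 over all genes tested). SE were derived from the test. The pipeline was tested on simulated data. The 6 -/- tumors come from 4 mice, and p-values measure the spread between tumors. Named members were the 5 with the smallest p in each direction of each comparison, those listed for their biology, and the 3 at each end of level per coding length and of variability. The genes shown as start sequences, Rpl27a and Rpl35 included, and the counts by recurring windows, GC content and chromosome were chosen after seeing values. Alternatives were RLE and upper quartile factors, DESeq2 1.42.0, other filters, fold thresholds, protein-coding genes alone, tumors of one mouse summed, other groups in the fit, pseudogene counts added, and each tumor left out. GC offsets and leaving out both tumors of mouse JM833 were added after seeing the data. The SD of log2 CPM used a pseudocount of 0.5. A few genes are not reported by name here.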

Additional observations from a re-analysis of the deposited data

Results flagged for a closer look

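Single tumors stood apart from their group for some named members by Dixon's criterion, in 28 of 135 groups of tumors checked, where chance alone gives about 1 in 20 (groups of the same tumors are not independent). In R172H/- tumor YZ7, Rpl11 was 211 CPM (others 75.5 to 109), Rpl22 395 CPM (152 to 229), Rpl29 328 CPM (87.3 to 183) and Rpl36 294 CPM (84.1 to 173). In the same tumor Rplp1 was 1061 CPM (496 to 664), Rps27 188 CPM (78.2 to 115), Rps6 126 CPM (52.2 to 71.8) and Rpl39l 0.833 CPM (0 to 0.212). In R172H/- tumor YZ6 the X-linked genes Rpl10 at 144 CPM (87.5 to 108), Rpl39 at 78.5 CPM (45.8 to 53.02) and Rps4x at 497 CPM (292 to 370) were the highest.

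In R245W/- tumor JM1133, Rpl11 was 285 CPM (169 to 193), Rplp0 2499 CPM (862 to 1249), Rplp1 907 CPM (477 to 591) and Rps26 532 CPM (233 to 316). Rps4x was 1736 CPM there (768 to 1006) and Rps6 142 CPM (83.2 to 98.6). R245W/- tumor RM0014 had 2.44 CPM of Rpl24 (1.31 to 1.51). JM1126 had 5.90 CPM of Rpl39l (0.0381 to 1.38) and 6.06 CPM of Rps4l (0.772 to 1.80).

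In -/- tumor JM779-T1, Rpl26 was 394 CPM (138 to 220), Rpl35 78.3 CPM (36.4 to 51.5), Rpl36 107 CPM (41.5 to 59.8) and Rpl38 284 CPM (134 to 181), and its 0.0323 CPM of Rpl10l was a single count. JM663-T1 had 1.63 CPM of Rpl3l (0.135 to 0.658). JM833-T1 was lowest for Rpl5 at 117 CPM (175 to 197) and Rplp0 at 773 CPM (1080 to 1194). The causes were not tested.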

How the results depend on the processing

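The count of members called for R172H/- against -/- was 34, between 27 and 40 with each tumor left out and between 26 and 39 under the other settings without a fold threshold. With an absolute log2 fold change above 1 it was 16, and above 2 it was 0, since the thresholds keep fewer genes. For R172H/- against R245W/- the 44 calls became 38 to 47 with each tumor left out, 37 to 47 under other settings and 5 with a log2 fold change above 2. For R245W/- against -/- the count was 0 except 1 by DESeq2. The 36 members with an unadjusted p under 0.05 there became 14 without JM1133, 23 without JM833-T1, 20 with tumors of one mouse summed, 22 with upper quartile factors, 23 with protein-coding genes alone and 22 with GC offsets, which were fitted on protein-coding genes alone. They became 49 with the R172H/- tumors in the fit, 46 without JM779-T1 and 44 without JM1233. Upper quartile factors moved the median of all genes to -0.11 in that comparison and to 0.10 between the mutants; the member medians were then 0.36 and -0.79. Group shares of counts stayed within 1 SD under every denominator tried.

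Direction was followed under the alternatives for the named members alone, and none of these that was called changed direction. Estimates near 0 did. For R172H/- against -/-, GC offsets gave Rpl22 0.067, Rps4l -0.29, Rps24 0.071 and Rps2 -0.12, and leaving out mouse JM833 gave Rpl41 -0.032, Rps2 -0.25 and Rpl7l1 -0.11. With pseudogene counts added Rps10 was 0.0063 in R245W/- against -/- and -0.24 between the mutants, where GC offsets gave Rplp1 -0.028 and Rps10 -0.014. The causes were not tested. With each tumor left out in turn, some estimates changed sign, and each is given as its lowest and highest value. In R172H/- against -/- these were Rpl22 -0.22 to 0.076, Rps4l -0.12 to 0.50, Rps3 -0.18 to 0.044, Rps2 -0.039 to 0.43, Rps10 -0.12 to 0.10, Rpl7l1 -0.035 to 0.20. In R245W/- against -/- they were Rplp0 -0.091 to 0.39, Rps4l -0.41 to 0.66, Rpl39l -0.038 to 2.10, Rps2 -0.54 to 0.0071, Rps10 -0.15 to 0.053. In R172H/- against R245W/- they were Rpl21 -0.087 to 0.37, Rps4l -0.42 to 0.51, Rplp2 -0.33 to 0.0018, Rplp1 -0.13 to 0.23, Rpl29 -0.10 to 1.06, Rpsa -0.32 to 0.0027, Rps10 -0.051 to 0.091. No paired analysis was possible because the replicate numbers only name the tumors and do not pair them across genotypes. Arms of 5 to 7 tumors and the spread between them limit what could be called, and genes with few counts, such as Rpl39l and Rpl3l, are limited by depth.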
